A study of Mus musculus with 18 samples.

Results

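Cells of the mpkCCD line were compared with and without dDAVP in the libraries that the submitters numbered 4 to 6. mpkCCD is an immortalised epithelial line from the mouse collecting duct, the last segment of the kidney tubule, and dDAVP is a synthetic analogue of the hormone vasopressin. The libraries were chosen by their numbers alone and are 6 of the 18 in the series: control 4, 5 and 6, and dDAVP 4, 5 and 6. Both groups grew to confluence on permeable supports, in medium with serum, epidermal growth factor, dexamethasone, insulin, transferrin, selenium and triiodothyronine, and then went without serum for 24 h. The dDAVP group then received 0.1 nM dDAVP for 24 h, and the controls spent the same time in the same medium without it. No genotype is named for either group. One cell line stands for the tissue, and the labels do not say that different numbers mark separate cultures, so the p-values measure the spread between these libraries, which may be technical.

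Vasopressin acts on the principal cells of the collecting duct through the V2 receptor, which couples to adenylyl cyclase and raises cyclic AMP. Cyclic AMP activates protein kinase A, whose substrates include the water channel aquaporin-2 and the transcription factor CREB. In this tissue the pathway is known for inserting aquaporin-2 into the apical membrane within minutes and for raising its abundance over hours to days, which allows water to be reabsorbed from the urine.

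The libraries held 27.3 M to 37.8 M counts. Levels are given as normalised CPM, counts per M counts of a library total scaled by edgeR's TMM factor, so a level compares libraries and not genes of different length. The library dDAVP 6 stood apart from the other 5. It had 10282 genes with a count, against 11267 to 11699 in the others, and its 100 most abundant genes took 82.4% of its counts, against 62.5% to 73.1%. Ribosomal protein genes took 0.841% of its counts, against 5.17% to 10.2%, and the shortest 20% of the tested genes took 4.62%, against 20.3% to 31.9%. Across genes, its log2 levels correlated with those of the other libraries at 0.78 to 0.81, while the other 5 correlated with each other at 0.89 to 0.95. Over all 3 libraries a group, the ribosomal share averaged 8.33% in the controls and 4.28% with dDAVP, and genes detected 11590 and 11010. Both measures gave p = 0.2 in a two-sided exact permutation test. Its smallest possible p with 3 libraries a group is 0.1, so it cannot decide whether the groups differ. Because dDAVP 6 stood apart, the comparison was fitted with and without it.

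**Figure D1:**
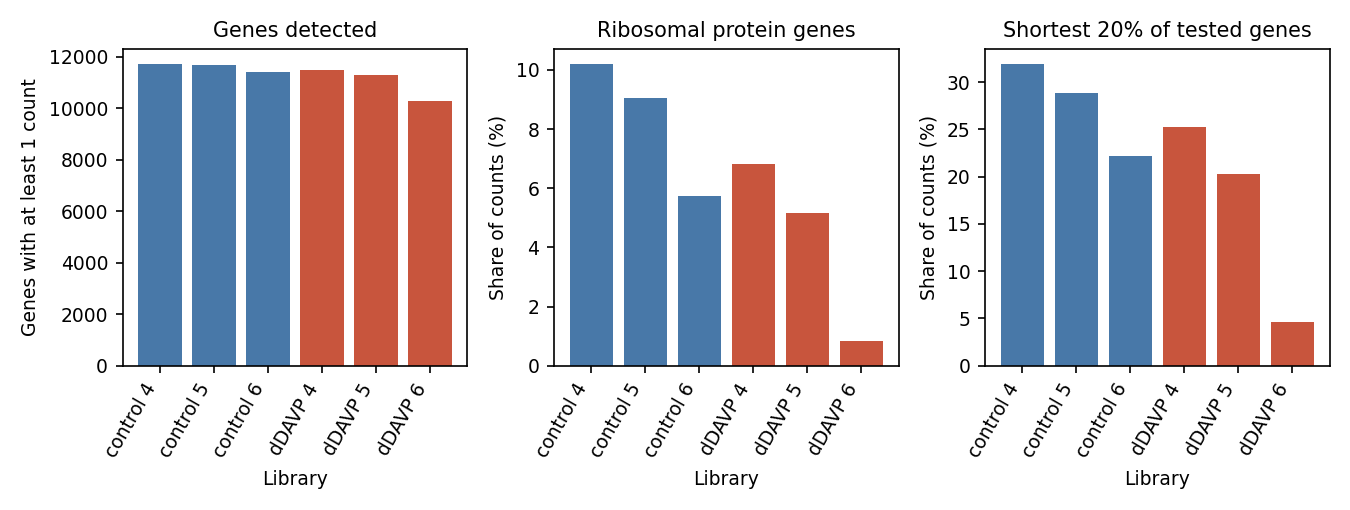
Bars show, for each of the 6 libraries, the number of genes with at least 1 count, the percentage of counts in ribosomal protein genes and the percentage of counts in the shortest 20% of tested genes; blue bars are control and red bars dDAVP. The bar of dDAVP 6 is the lowest in all 3 panels, at 10282 genes, 0.841% and 4.62%.

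The collecting duct label was checked against markers. All 12 genes of the principal cell set used, among them Aqp2, Avpr2, Scnn1a, Hsd11b2, Gata3 and Cdh16, averaged at least 1 normalised CPM. The set also held the general epithelial genes Krt8, Krt18, Krt19, Epcam and Cdh1. Krt18 and Krt19 averaged 421 and 393 in the controls. Cdh16 averaged 339 there, Aqp2 28.7, Avpr2 22.2 and Scnn1a 15.3. The count and the summed levels thus rest in large part on genes not particular to principal cells. The set did not include the water channel genes Aqp3 and Aqp4. Aqp3 averaged 0.791 in the controls and 2.45 with dDAVP, and Aqp4 had counts in control 5 only. The summed level of the 12 was 1716 to 2148 in the controls and 2668 to 2742 with dDAVP. Without Aqp2 it was 1684 to 2116 in the controls and 2021, 1928 and 2623 in dDAVP 4, 5 and 6, so that dDAVP 4 and 5 lay within the control range and dDAVP 6 above it. Of 4 intercalated cell markers 1 reached that level, the proton pump subunit gene Atp6v1b1, and Foxi1, Slc4a1 and Slc26a4 were at 0 in all 6 libraries. Of the markers of other cells, 1 of 10 for the proximal tubule (Lrp2), 1 of 5 for podocytes (Podxl), 2 of 9 for leukocytes (Csf1r and Cd14) and none for fibroblasts, endothelium or the thick limb and distal tubule averaged 1 CPM. Their summed levels were at most 8.77 in the controls and 14.3 with dDAVP for any list, and Slc34a1, Nphs1, Ptprc, Pdgfra, Pecam1 and Slc12a3 were at 0 throughout.

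With all 6 libraries, edgeR's quasi-likelihood test on 10387 genes called no gene at a Benjamini-Hochberg adjusted p under 0.05 (0%). The unadjusted p was under 0.05 for 479 genes (4.61%), and for 541 (4.96%) without dDAVP 6. Without that library, the test called 2 of 10898 genes (0.0184%), both higher with dDAVP: Aqp2, the gene of the water channel itself, and Cited1, which encodes a transcriptional coactivator that binds CBP and p300. Both stood above every control in each of the 3 dDAVP libraries. In bulk RNA, a higher level in each cell and a larger share of expressing cells cannot be told apart. In the 6-library comparison 485 genes were separated from the controls in this way upward (4.67%) and 594 downward (5.72%). In the two-sided exact permutation test, complete separation gives p = 0.1 with 3 libraries a group. Shares of this size are therefore expected on average where no gene differs, and separation alone is no evidence of an effect. The shares at an unadjusted edgeR p under 0.05 likewise lie near that threshold.

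The region around the annotated start of these genes is shown because cyclic AMP acts on transcription through CREB, whose response elements contain the half-site TGACG. The sequences run 5′ to 3′ from 250 bases before to 50 bases after the RefSeq transcription start on GRCm38.p6, the assembly also called mm10, with the half-site, on either strand, in capitals. Aqp2 has 1 listed start, on the plus strand (chr15:99578806-99579105). Cited1 has 3, on the minus strand, and the one shown holds a half-site (chrX:102250727-102251026).
Aqp2: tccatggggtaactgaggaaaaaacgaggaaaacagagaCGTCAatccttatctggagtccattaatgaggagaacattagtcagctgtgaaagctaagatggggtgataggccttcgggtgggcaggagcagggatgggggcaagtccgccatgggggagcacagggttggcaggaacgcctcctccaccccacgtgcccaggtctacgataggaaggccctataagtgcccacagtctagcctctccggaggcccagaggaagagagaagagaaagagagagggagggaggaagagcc
Cited1: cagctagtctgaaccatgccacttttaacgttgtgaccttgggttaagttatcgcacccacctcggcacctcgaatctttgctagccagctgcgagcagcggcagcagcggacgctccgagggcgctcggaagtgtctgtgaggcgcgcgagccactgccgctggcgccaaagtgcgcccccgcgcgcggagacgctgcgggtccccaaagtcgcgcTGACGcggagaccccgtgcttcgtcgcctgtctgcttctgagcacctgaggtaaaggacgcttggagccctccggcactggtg
The Aqp2 window holds the half-site in the reverse direction, as CGTCA, starting 211 bases upstream of the start, and the Cited1 window holds it forward, 33 bases upstream. The windows at the other 2 Cited1 starts (chrX:102252132-102252431 and chrX:102251794-102252093) and at B3gnt7 (chr1:86302971-86303270) hold none. A half-site lies in 20.8% of 32851 promoter windows of this length, and the full palindrome TGACGTCA in 1.79% and in none of these 5.

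Aqp2 (chr15:99579056-99584545) stood at 32.3, 21.6 and 32.2 normalised CPM in control 4, 5 and 6, and at 662, 739.9 and 119 in dDAVP 4, 5 and 6. The groups did not overlap, and dDAVP 6 was the lowest of the treated libraries. The mean was 28.7 ± 6.15 (SD, n = 3) in the controls and 507 ± 338 (SD, n = 3) with dDAVP. With 6 libraries the log2 fold change was 4.14 (SE 0.77), which edgeR did not call (adjusted p = 0.772, unadjusted p = 0.000149). Without dDAVP 6, Aqp2 rose by 4.6 on the log2 scale (SE 0.43, edgeR adjusted p = 0.00254). It was called in 14 of 14 alternatives to that fit (adjusted p 1.2e-33 to 0.0455) and in 4 of 17 alternatives to the fit of 6 libraries.

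Cited1 (chrX:102247378-102252181) was measured at 1.24, 1.34 and 1.59 normalised CPM in the controls and at 24.8, 49.2 and 14.98 in dDAVP 4, 5 and 6. Even its lowest dDAVP library, again dDAVP 6, lay far above the controls. Its log2 fold change was 4.41 (SE 0.62, edgeR adjusted p = 0.118) with 6 libraries. Without dDAVP 6, Cited1 rose by 4.72 (SE 0.47, edgeR adjusted p = 0.00254), and 11 of 14 alternatives to that fit called it (adjusted p 6.9e-17 to 0.0713). Both genes belong to the shortest 20% by length, with 1416 bases for Aqp2 and 951 for Cited1. The median log2 fold change of that group of genes was -0.28. The part of length in the values of Aqp2 and Cited1 was not tested.

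Next in order of p without dDAVP 6 was B3gnt7, which encodes a glycosyltransferase that extends poly-N-acetyllactosamine chains. It was measured at 13.5, 19.3 and 21.9 normalised CPM in the controls and at 78.97, 119 and 55.5 in dDAVP 4, 5 and 6, with no overlap. Its log2 fold change was 2.21 (SE 0.49) with 6 libraries and 2.43 without dDAVP 6, and edgeR called it in neither fit (adjusted p = 0.999 and 0.119).

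**Figure D2:**
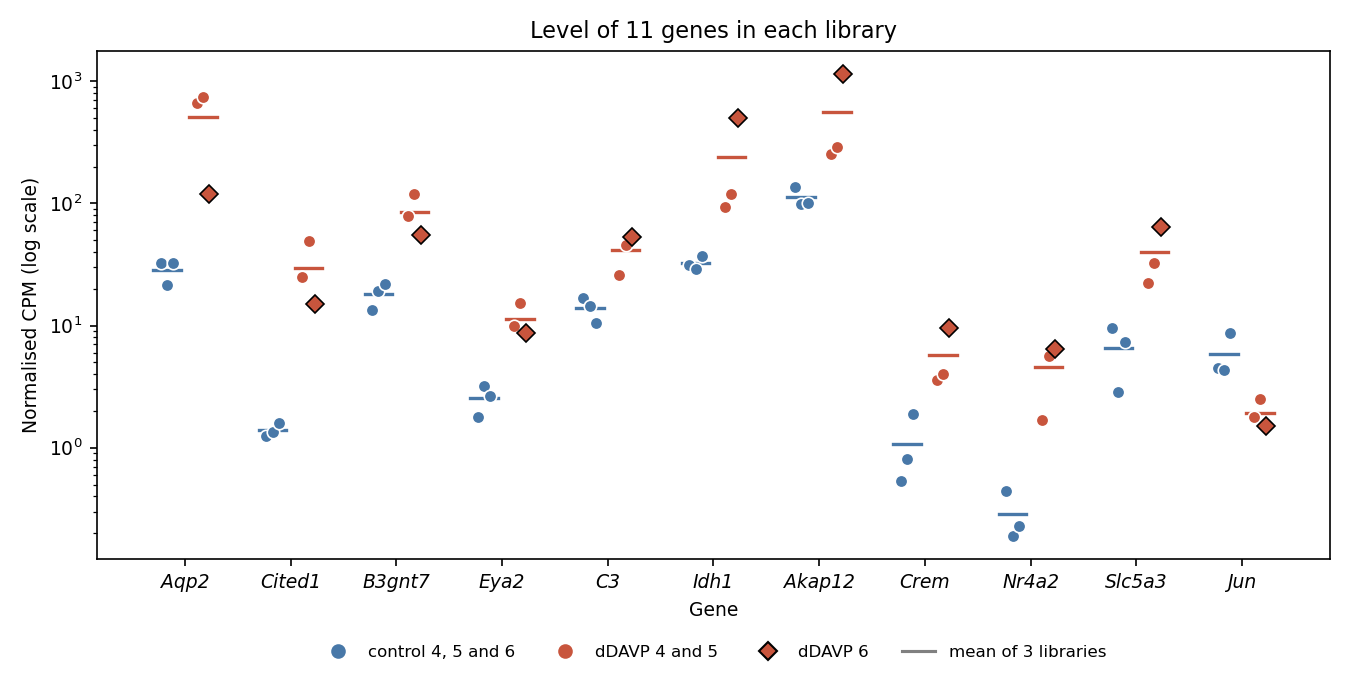
Points show the normalised CPM of 11 genes in each library on a log scale, blue for control and red for dDAVP, with dDAVP 6 as a black-edged diamond and a line at the mean of each group's 3 libraries. The groups do not overlap for any of the 11 genes; dDAVP 6 is the lowest treated library for Aqp2, Cited1, B3gnt7, Eya2 and Jun and the highest for C3, Idh1, Akap12, Crem, Nr4a2 and Slc5a3.

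Earlier results on all 18 libraries, these 6 included, had named 22 genes as higher with dDAVP. In libraries 4 to 6, 19 of them could be tested, 18 had a positive log2 fold change and 12 were separated upward, with a median of 2.05 against -0.03 over all tested genes, of which 4.67% were separated upward. With library totals in place of TMM the separated genes were 6 of 19 (164 of all 10387), and 5 of 14 with FPKM (118 of all 7365). Since the genes were named with these libraries in view, the counts describe them and test nothing. Besides the 3 genes above, the separated genes were Arhgef3, C3, Idh1, Bcat1, Eya2, Crem, Car12, Akap12 and Stat3.

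Idh1, which makes cytosolic NADPH from isocitrate, showed how far dDAVP 6 can move a value. Its levels were 31.2, 29.3 and 37.1 normalised CPM in the controls and 93.5, 120.3 and 500.1 with dDAVP. All treated libraries lay above the controls, and dDAVP 6 was the highest of them. The log2 fold change was 2.87 (SE 0.69) with all libraries and 1.71 (SE 0.34) without dDAVP 6, and edgeR called it in neither (adjusted p = 0.999 and 0.514).

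Akap12, a scaffold that tethers protein kinase A, behaved likewise, with 137, 98.6 and 101 normalised CPM in the controls and 251, 287 and 1147 with dDAVP. Its log2 fold change was 2.32 with 6 libraries and 1.25 without dDAVP 6. For Eya2, a coactivator and phosphatase, the libraries were closer together: 1.78, 3.23 and 2.64 in the controls and 9.94, 15.2 and 8.64 with dDAVP. Its log2 fold changes of 2.14 and 2.29 hardly depended on dDAVP 6. Complement C3 was measured at 16.9, 14.4 and 10.5 in the controls and 25.7, 46.02 and 52.6 with dDAVP, with log2 fold changes of 1.57 and 1.36. None of these genes was called by edgeR in either fit.

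Bcat1, the cytosolic aminotransferase of branched-chain amino acids, had levels of 4.04, 4.49 and 9.22 normalised CPM in the controls and 13.4, 15.7 and 22.3 with dDAVP. The guanine nucleotide exchange factor gene Arhgef3 stood at 0.533, 0.478 and 0.536 in the controls and at 2.71, 4.45 and 7.40 with dDAVP. Both genes were separated, at log2 fold changes of 1.53 and 3.22. Other genes of the earlier list were not: Car15, a carbonic anhydrase, ranged over 0.133 to 1.30 in the controls and 0.264 to 1.20 with dDAVP, and Aqp5, a second aquaporin, over 0.103 to 1.66 and 0.418 to 3.35.

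All 8 genes named earlier as lower with dDAVP had a negative log2 fold change (51.9% of all tested genes). Of the 8, 3 were separated downward (5.72% of all tested genes). These were the transcription factor genes Jun and Atf3 and the Ras-like gene Rasl11a. Jun stood at 4.53, 4.36 and 8.65 normalised CPM in the controls and at 1.78, 2.51 and 1.50 with dDAVP, a log2 fold change of -1.59 that was -1.45 without dDAVP 6. Atf3 had 13.7, 10.8 and 18.3 in the controls and 7.05, 8.11 and 1.59 with dDAVP, with dDAVP 6 the lowest. Rasl11a had 5.73, 5.54 and 3.88 against 2.38, 1.47 and 2.03. None was called by edgeR with or without dDAVP 6.

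A list of 34 genes of V2 receptor and cyclic AMP signalling had 25 tested members. Of these, 14 had a positive log2 fold change, against 48.1% of all tested genes, and edgeR called none. Of all tested genes 4.67% were separated upward and 5.72% downward. The receptor gene Avpr2 was measured at 20.1, 24.9 and 21.5 normalised CPM in the controls and at 22.3, 23.0 and 9.69 with dDAVP. Its treated and control libraries overlapped, and dDAVP 6 was the only one under 20. Of the list, Akap12 and the phosphodiesterase genes Pde4b and Pde7a were separated upward, and Prkaca, a catalytic subunit of protein kinase A, and Pkig, an inhibitor of the kinase, downward. Pde4b stood at 0.666, 0.516 and 0.103 in the controls and at 3.19, 1.87 and 1.41 with dDAVP, a log2 fold change of 2.34 (2.55 without dDAVP 6). Pkig had 40.5, 36.9 and 29.8 against 27.5, 25.5 and 14.0.

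Among 36 tested genes known as targets of cyclic AMP and CREB, 20 had a positive and 16 a negative log2 fold change, and without dDAVP 6 the numbers were 26 and 13 of 39. The share of positive values over all tested genes was 48.1% with 6 libraries and 47.9% without dDAVP 6. Separated upward were Crem, Fosl2, Nr4a2, Sik1, Pde4b and Avpi1, and downward Jun, Atf3, Id2 and Gem. Over all tested genes 4.67% were separated upward and 5.72% downward.

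Crem, whose products include a repressor that limits cyclic AMP responses, was measured at 0.533, 0.802 and 1.88 normalised CPM in the controls and at 3.55, 4.03 and 9.61 with dDAVP. The orphan nuclear receptor gene Nr4a2 stood at 0.444, 0.191 and 0.227 against 1.69, 5.65 and 6.43. Fosl2, an AP-1 subunit, stood at 1.24, 2.41 and 1.84 against 2.59, 10.2 and 19.5. In all 3 the highest library was dDAVP 6, and the log2 fold changes were 2.4, 4 and 2.54 with it and 1.81, 3.68 and 1.79 without it. Avpi1, named for its induction by vasopressin, kept to a narrower range, with 12.5, 12.6 and 13.8 in the controls and 21.1, 28.8 and 20.7 with dDAVP (log2 fold change 0.86, and 0.94 without dDAVP 6). Gem, a small GTPase gene, was measured at 0.844, 0.650 and 0.681 in the controls, at 0.0726 in dDAVP 5 and at 0 in dDAVP 4 and 6. On this scale a count of 0 allows up to 3 counts, or 0.0903 CPM in dDAVP 4 and 0.264 in dDAVP 6. edgeR called none of the 5 in either fit.

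Of 29 tested principal cell genes, 17 had a positive log2 fold change, against 48.1% of all tested genes. The shares of all tested genes separated were 4.67% upward and 5.72% downward. Aqp2, the glucocorticoid receptor gene Nr3c1 and the transcription factor gene Gata2 were separated upward, and the sodium channel gene Scnn1b and the kidney cadherin gene Cdh16 downward. Scnn1b stood at 4.93, 4.32 and 6.46 normalised CPM in the controls and at 2.86, 0.127 and 0.0881 with dDAVP, so dDAVP 5 and 6 were low and dDAVP 4 was nearer the controls (log2 fold change -2.32, SE 1.20). The other sodium channel subunits overlapped: Scnn1a ranged over 11.96 to 19.1 in the controls and 2.73 to 12.4 with dDAVP, and Scnn1g over 0.755 to 4.13 and 0.0904 to 4.49. Aqp3, a basolateral water channel, was at 0.7996, 0.458 and 1.11 in the controls and 0.602, 2.80 and 3.97 with dDAVP, which overlapped too. Aqp4 had counts in control 5 only, at 0.0382.

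No tested gene of 36 for aquaporin-2 vesicle trafficking was separated upward (4.67% of all genes), and 3 were downward (5.72% of all genes): Vamp3, Rab3d and Lasp1. These counts are near the shares over all genes. Lasp1, an actin-binding protein gene, had 62.9, 46.02 and 52.5 normalised CPM in the controls and 44.97, 16.9 and 29.6 with dDAVP, with dDAVP 4 just under the lowest control. Among 10 tested intercalated cell genes, the carbonic anhydrase gene Car12 was separated upward, at 0.578, 2.01 and 0.248 in the controls and 3.25, 2.49 and 7.23 with dDAVP. Separated downward were 2, the ammonia transporter gene Rhbg, at 2.31, 1.55 and 0.454 against 0.121, 0.0363 and 0, and Atp6v1b1, at 1.56, 2.01 and 2.00 against 1.54, 1.54 and 0.0881. For Atp6v1b1, dDAVP 4 and 5 lay just under the lowest control.

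In the list of other ion and water transporters, 2 of 20 tested genes were separated upward and none downward, where 4.67% and 5.72% of all genes were. One of them was Slc5a3, which carries the osmolyte myo-inositol into the cell. Slc5a3 stood at 9.55, 2.88 and 7.30 normalised CPM in the controls and at 22.4, 32.5 and 64.6 with dDAVP. Every treated library lay above the controls. Its log2 fold change of 2.60 was 2.06 without dDAVP 6, and edgeR called it in neither fit.

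Gene groups of metabolism were spread around the median of all genes. Over all tested genes 48.1% had a positive log2 fold change, 4.67% were separated upward and 5.72% downward. In amino acid and NADPH metabolism 17 of 24 tested genes had a positive log2 fold change, with Bcat1, Idh1 and Me1 separated upward. In sterol and fatty acid synthesis 16 of 30 were positive and 3 separated upward. Among these, Sc5d, a late enzyme of cholesterol synthesis, stood at 9.02, 11.5 and 10.2 normalised CPM in the controls and at 15.1, 34.9 and 92.8 with dDAVP. Hmgcs1, an early enzyme of the same route, stood at 39.8, 41.8 and 32.3 against 48.2, 91.6 and 323. In both the treated libraries lay in the same order, with dDAVP 4 nearest the controls and dDAVP 6 farthest away. The genes of the nuclear-encoded respiratory chain had a median of -0.28, with 32 of 46 negative, and Ndufs7 was separated upward and Ndufa1 and Cycs downward.

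Most interferon response genes had negative values, 21 of 30 tested against 51.9% of all tested genes, with a median of -0.45. Of the 30, 3 were separated downward against a background of 5.72%. Without dDAVP 6 the median was -0.75, with 28 of 34 negative, against 52.1% of all tested genes. Then 8 were separated downward, against a background of 10.6%. Irf7, an interferon-induced transcription factor gene, stood at 6.71, 6.44 and 5.65 normalised CPM in the controls and at 3.71, 1.49 and 0.793 with dDAVP. The RNA sensor gene Ddx58 was uneven within the controls, at 0.666, 8.06 and 4.99, and stood at 0.211, 0.545 and 0.0881 with dDAVP. Oasl2 was as uneven, at 0.666, 2.96 and 9.78 in the controls and 0.271, 0.436 and 1.23 with dDAVP, and its groups overlapped through dDAVP 6. edgeR called none of the listed interferon genes in either fit.

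Of 34 tested genes of the actin cytoskeleton and serum response, 2 were separated upward and 4 downward, where 4.67% and 5.72% of all genes were. The non-muscle myosin genes lay on different sides of the controls. Myl6, a light chain, stood at 104, 124 and 111 normalised CPM in the controls and at 73.9, 46.2 and 46.4 with dDAVP, and Myh9, a heavy chain, at 141, 104 and 144 against 161, 228 and 639.7. Tropomyosin Tpm1 stood at 142, 214 and 154 against 102, 78.6 and 89.1. The log2 fold changes were -1.03 for Myl6, 1.41 for Myh9 and -0.92 for Tpm1, and -0.92, 0.58 and -0.93 without dDAVP 6. Implied lengths were 614 bases for Myl6, 1518 for Tpm1 and 7433 for Myh9, and the part of length in these values was not tested.

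In the remaining groups, the separated members are to be read against the same 4.67% upward and 5.72% downward over all genes. Positive values are to be read against 48.1% of all tested genes. The 32 tested junction genes had 13 positive and 19 negative values, with Cldn3, Cldn4 and Cdh16 separated downward. The matrix list of 30 had 8 positive and 22 negative values, with Fn1 and Col4a3 separated upward and Agrn, a basement membrane proteoglycan gene, downward. Agrn had 95.2, 60.1 and 59.95 normalised CPM in the controls and 51.8, 36.3 and 15.7 with dDAVP. In Notch, EGF and TGF-beta signalling 4 of 28 were separated downward: Jag2, Tgfb2, Bmp7 and Id2. Jag2, a Notch ligand gene, stood at 0.844, 0.898 and 1.47 in the controls and at 0, 0.0726 and 0 with dDAVP. In the cell cycle list 27 of 45 values were positive, with Cdc20 separated upward and Cdk1 and the sliding clamp gene Pcna downward, Pcna at 1903, 1119 and 1395 against 1093, 569 and 223. Of 16 clock genes 11 had positive values, with Dbp, Tef and Bhlhe40 separated upward and Arntl downward. Positive values numbered 9 of 14 in inflammation and complement, 16 of 31 in the unfolded protein response, 14 of 27 in glycolysis and hypoxia and 3 of 6 among keratins.

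**Figure D3:**
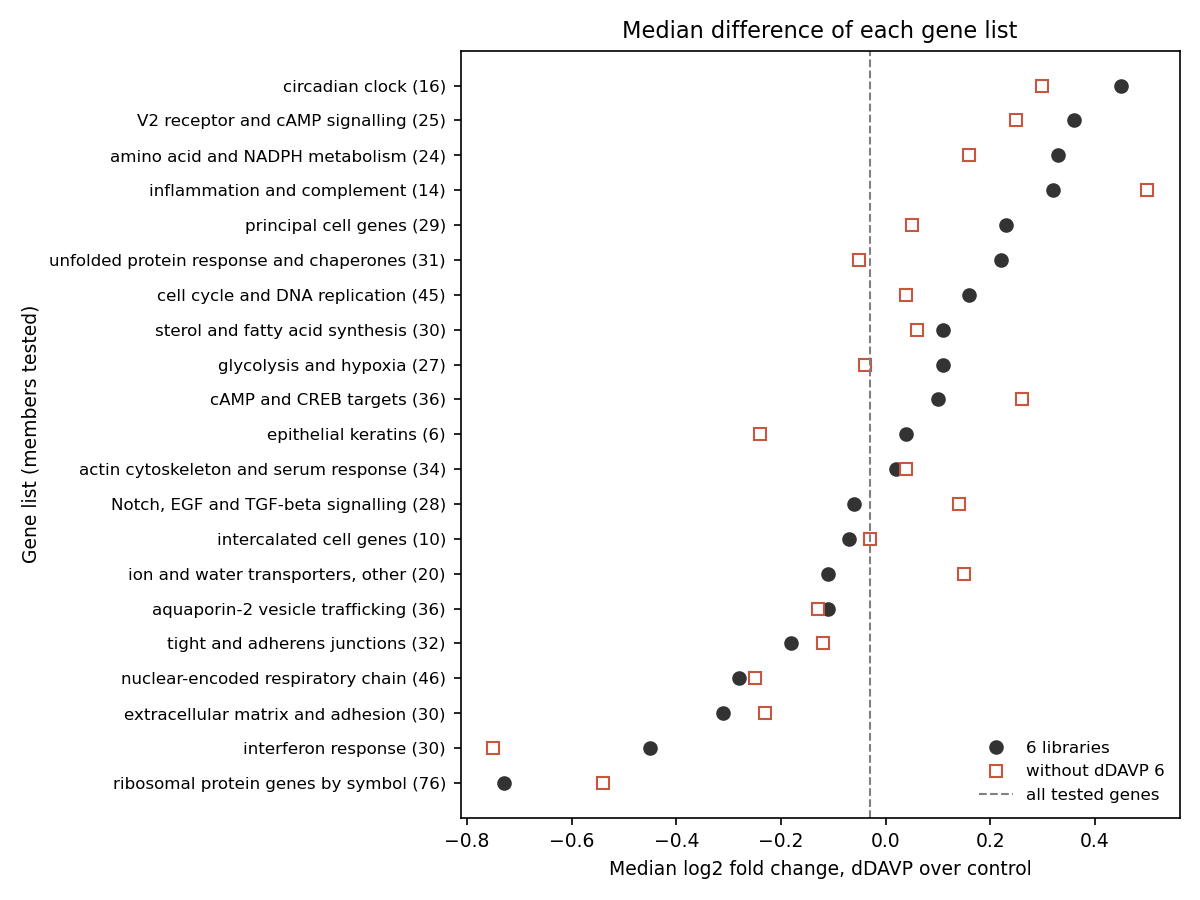
Each row is a gene list with at least 5 tested members, their number in brackets, leaving out the lists of genes named earlier or called in libraries 1 to 3; the horizontal axis is the median log2 fold change of dDAVP over control, filled circles for 6 libraries, open squares without dDAVP 6 and a dashed line at -0.03 for all tested genes. TMM scaling is used throughout, and of the lists drawn the ribosomal protein and interferon lists lie lowest in both fits, at -0.73 and -0.45 with 6 libraries, and no median drawn exceeds 0.50.

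Nearly all ribosomal protein genes lay on one side of 0. With 6 libraries 73 of 76 had a negative log2 fold change, against 51.9% of all tested genes, with a median of -0.73. Without dDAVP 6, 75 of 76 did, against 52.1%, with a median of -0.54. Few of them separated completely: 8 of 76 downward, where 5.72% of all genes did, and 13 of 76 without dDAVP 6, where 10.6% did. These genes have many near-identical pseudogenes, with which reads may be shared. Rpl29 stood at 471, 961 and 393 normalised CPM in the controls and at 318, 135 and 123 with dDAVP. Rpl36a stood at 52.8, 61.6 and 38.3 against 25.5, 14.6 and 10.3. edgeR called none of the 76 in either fit.

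Short genes as a whole lay lower with dDAVP. In 5 equal bins from the shortest to the longest genes the median log2 fold change was -0.28, -0.09, 0.03, 0.07 and 0.18 with 6 libraries, and -0.20, -0.02, 0.02, 0.05 and 0.03 without dDAVP 6. In the shortest bin 2.37% of genes were separated upward and 8.49% downward, and in the longest 7.34% and 4.06%. Of the 76 ribosomal protein genes 69 lie in the shortest bin, and the part of length in their values was not tested. Scaling by library totals alone moved the median of all genes to -0.38 and the upward share of the separated genes from 44.95% to 21.6%. Relative to that median the ribosomal list stood at -0.58 and the interferon list at -0.40. With library totals 30.6% of all tested genes had a positive value. Beside that share, positive values numbered 13 of 25 in V2 receptor and cyclic AMP signalling and 15 of 36 among cyclic AMP and CREB targets. They numbered 10 of 29 among principal cell genes, 11 of 45 in the cell cycle and 12 of 24 in amino acid and NADPH metabolism. In sterol and fatty acid synthesis 7 of 30 were positive, and in the clock list 6 of 16.

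**Figure D4:**
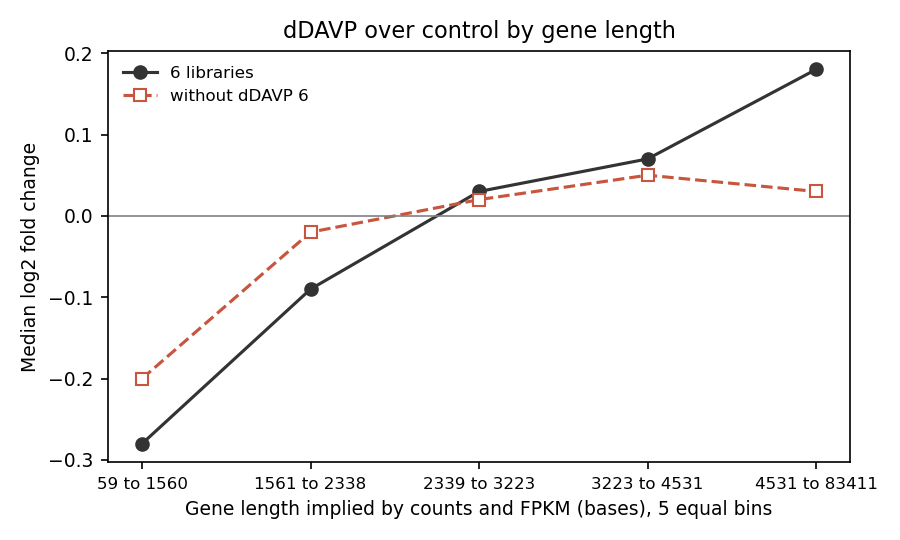
The median log2 fold change of dDAVP over control is plotted for 5 equal bins of the tested genes ordered by length, with the range of lengths in bases below each, filled circles for 6 libraries and open squares without dDAVP 6. The values climb from -0.28 in the shortest to 0.18 in the longest bin with 6 libraries, and stay between -0.02 and 0.05 above the shortest bin without dDAVP 6.

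The genes with the largest separated differences were listed by a set rule. It asked for at least 5 normalised CPM on average, an unadjusted p under 0.05 and the same sign without dDAVP 6. It left out predicted genes, clones, small RNAs, symbols turned into dates and ribosomal protein genes. The rule kept 160 genes upward, in 145 of which dDAVP 6 was the highest library, and 41 downward. The 15 highest by log2 fold change were Cited1, Aqp2, Zfp398, Snx18, Ado, Sema3a, Cdc25c, Sat1, Commd8, Zfp120, Idh1, Smim13, Gsdmc4, Arid1b and Synj2bp. In 13 of the 15, all but Aqp2 and Cited1, dDAVP 6 was the highest library.

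Snx18, a sorting nexin gene, stood at 50.0, 40.0 and 34.0 normalised CPM in the controls and at 63.0, 159.5 and 1072 with dDAVP. Ado, a thiol dioxygenase gene, stood at 221, 147 and 421 against 759, 737 and 5485. In both, dDAVP 4 and 5 lay above the controls by less than dDAVP 6 lay above them, and the log2 fold changes of 3.38 and 3.15 were 1.42 and 1.51 without dDAVP 6. Sema3a, a secreted guidance protein gene, had 11.5, 8.02 and 13.5 in the controls and 41.6, 52.2 and 172 with dDAVP. Its log2 fold change was 3.01 (SE 0.62) with 6 libraries and 2.09 (SE 0.38) without dDAVP 6, with edgeR adjusted p of 0.999 and 0.387.

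Cdc25c, the phosphatase that activates Cdk1 at entry into mitosis, had 11.9, 5.92 and 8.31 normalised CPM in the controls and 24.0, 39.2 and 147 with dDAVP. Sat1, which acetylates polyamines, had 59.2, 38.1 and 94.4 against 229, 169 and 1137. For Arid1b, a subunit of a chromatin remodelling complex, dDAVP 4 at 54.0 was barely above control 6 at 53.4, and its log2 fold change of 2.73 was 0.66 without dDAVP 6. All 15 genes remained separated without dDAVP 6, which follows from the rule, since it asked for separation with dDAVP 6 included. Of the 15, 13 then had an unadjusted edgeR p under 0.05. These libraries had also served to pick the genes, so the count tests nothing.

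Among the 15 lowest were Msra, Mmp15, Tmem8, Prps1, Slc52a2, Nipal3, Ephx1, Ahsa2, Polb, Kntc1, Kcmf1, Dynll1, Ndufs4 and Prr14, and in 8 of the 15 dDAVP 6 was the lowest library. Msra, which repairs oxidised methionine, stood at 10.2, 8.84 and 12.1 normalised CPM in the controls and at 3.13, 1.07 and 0.353 with dDAVP. Prps1, a phosphoribosyl pyrophosphate synthetase gene, stood at 9.42, 20.1 and 9.41 against 1.78, 1.69 and 5.29. Its log2 fold change of -2.17 was -2.91 without dDAVP 6, since dDAVP 6 was the treated library nearest the controls. Polb, the repair DNA polymerase beta gene, had 37.2, 39.3 and 35.0 in the controls and 28.0, 3.65 and 3.00 with dDAVP, so dDAVP 4 lay near the controls. Of these 15, 12 had an unadjusted p under 0.05 without dDAVP 6, again on libraries that had served to pick them.

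**Figure D5:**
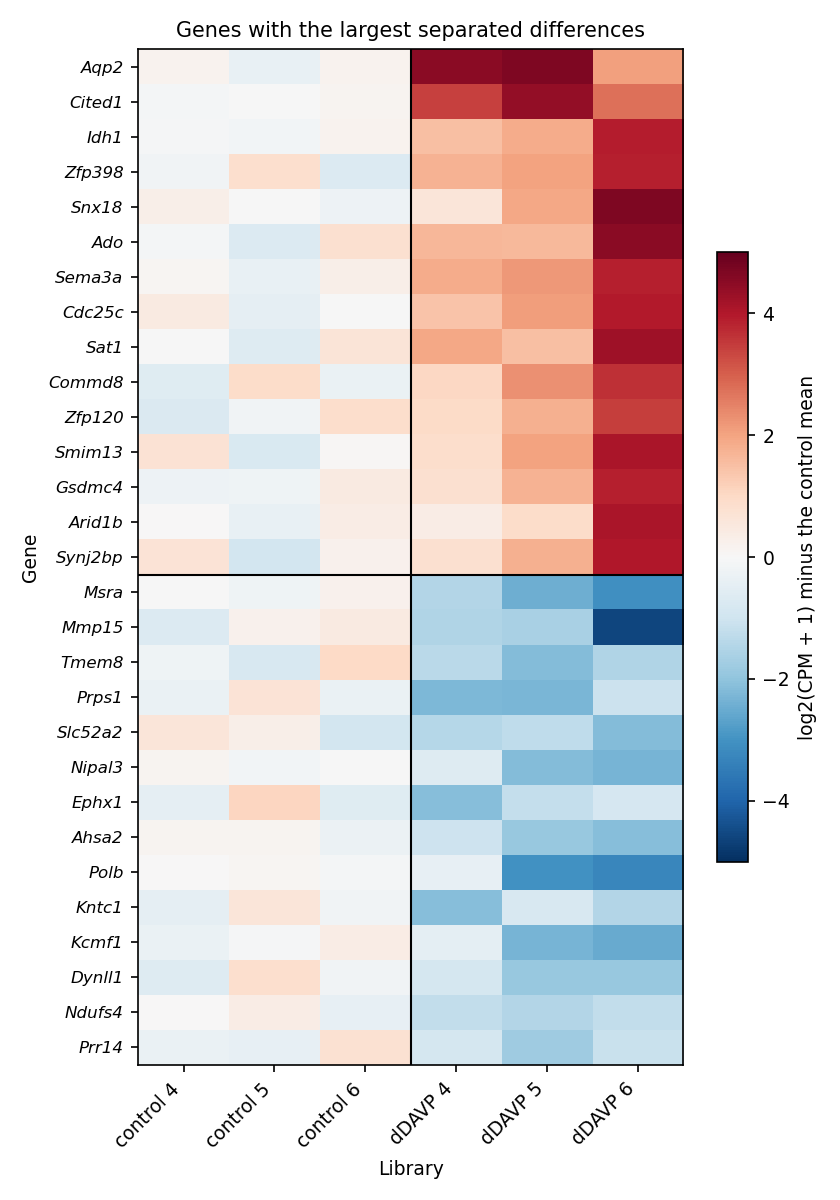
Colours show log2(CPM + 1) minus the control mean for the 15 highest and 14 of the 15 lowest separated genes (rows) in each of the 6 libraries (columns), red for higher and blue for lower. Aqp2 and Cited1 are palest in dDAVP 6 among the treated libraries, while the other 13 upper genes are darkest there.

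Counts of 0 were another feature of dDAVP 6. Among the 8488 genes that reached 100 counts in some dDAVP library, 444 had 0 in another dDAVP library, and 391 of these were at 0 in dDAVP 6. In the controls the number was 123 of 8834, and among dDAVP 4 and 5 alone it was 79 of 8380. Thop1, a metallopeptidase gene, stood at 31.3 and 14.1 normalised CPM in dDAVP 4 and 5 and 7.81 to 21.6 in the controls, and at 0 in dDAVP 6. Fam110a, Mrm1, Smap1 and Pafah2 were likewise at 0 in dDAVP 6 and measured in the other 5 libraries. The most abundant genes differed as well: Ptges3, a co-chaperone gene, took 6.32% of the counts of dDAVP 6 and 1.66% to 3.11% elsewhere, and Tpt1 0.489% against 3.34% to 6.12%.

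DESeq2 called more genes on the same counts. With 6 libraries it called 29 (0.281%), 21 higher and 8 lower, and 9 of the 29 had a library at 0. The higher ones included Aqp2, Cited1, B3gnt7, Sema3a, Idh1, Nr4a2, Snx18, Cdc25c, Sat1, Slc5a3 and Arhgef3. Without dDAVP 6 it called 52 (0.477%), 14 higher and 38 lower, of which 23 had a library at 0, and 16 genes were called both times. limma voom with sample quality weights, which gave dDAVP 6 a weight of 0.39 against 0.879 to 1.48 for the others, called Aqp2 and Cited1 with all 6 libraries (0.0193%).

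The same treatment is given by the labels for libraries 1 to 3 and 7 to 9, also 3 against 3 each. Their levels are given as CPM of the library totals without the TMM factor, so they do not compare directly with the levels above. Aqp2 ranged over 14.1 to 22.4 CPM in controls 1 to 3 and 1033 to 1706 with dDAVP. In libraries 7 to 9 it ranged over 25.2 to 290.7 CPM in the controls and 529.5 to 3598 with dDAVP. Cited1 ranged over 0.214 to 0.470 and 48.6 to 99.1 in libraries 1 to 3, and over 0 to 0.929 and 6.21 to 11.2 in libraries 7 to 9. The test of the difference in log2 fold change called no gene between libraries 4 to 6 and 1 to 3 (edgeR on all 18 libraries, 0 of 11710 genes, 468 or 4% at an unadjusted p under 0.05). Against libraries 7 to 9 it also called none (0%, with 1209 or 10.3% at an unadjusted p under 0.05), while DESeq2 called 13 and 238 genes. For Aqp2 the difference was -2.19 (SE 1.39, edgeR adjusted p = 1) from libraries 1 to 3 and 0.81 (SE 1.37, adjusted p = 0.913) from libraries 7 to 9. For Cited1 it was -3.14 (SE 1.43) and 0.56 (SE 1.40), with edgeR adjusted p of 1 and 0.949.

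An edgeR fit of libraries 1 to 3 alone called 34 genes as higher with dDAVP, and 32 of these could be tested in libraries 4 to 6. Of the 32, 28 had a positive log2 fold change here (background 48.1%), with a median of 1.25. Separated upward were 11 (background 4.67%), and none downward. With library totals 24 were positive (background 30.6%) and 4 separated upward, with a median of 0.76. Over all genes 164 of 10387 were then separated upward, with a median of -0.38. With FPKM 3 of 25 were separated upward, with a median of 0.34, against 118 of 7365 and -0.41 over all genes. Without dDAVP 6 the separated genes were 15 of 32 (background 9.16%), with a median of 0.99. They then included Baiap2l2, Cited4, Fcgbp and Lypd3, whose level in dDAVP 6 lay within or below the control range. Baiap2l2, a gene for an apical membrane-bending protein, stood at 2.89, 2.10 and 4.29 normalised CPM in the controls and at 14.1, 20.4 and 3.44 with dDAVP. Lypd3 had 10.3, 8.35 and 8.07 against 12.7, 34.3 and 7.05. All 7 genes called lower in libraries 1 to 3 had a negative log2 fold change here (background 51.9%). Of these, Atf3 and Rasl11a were separated downward (background 5.72%). Of the 15 highest genes of libraries 4 to 6 listed above, 6 had a positive log2 fold change in libraries 1 to 3 and 8 in libraries 7 to 9.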

How the data were processed

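The 6 libraries of the comparison are RNA-seq libraries of mpkCCD cells, grouped by the titles in the labels. The labels' protocols name 20 ng of total RNA, a single-cell cDNA method and a NuGEN Ovation library kit, with the same text for every library. Reads were aligned to mm10 and counted by the authors, and the tools named are STAR 2.4.0.1, HTSeq and SAMtools, per the submitters' processing notes. The annotation release and strand setting are not given in the sources used here, so overlapping antisense genes and near-identical copies, such as ribosomal protein pseudogenes, are uncertain. The deposited count table holds whole-number counts per gene symbol. The deposited FPKM table was used for gene lengths (count over FPKM, scaled by library totals) and as an alternative, as log2(FPKM + 1) with limma.

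Genes kept by filterByExpr were fitted with edgeR 4.0.16 (TMM, quasi-likelihood, two-sided, Benjamini-Hochberg over all tested genes, threshold 0.05) on the 6 libraries without covariates, and again without dDAVP 6. Settings for the second fit were chosen after seeing the data. The SE given with an edgeR log2 fold change is its absolute value over the square root of the quasi-likelihood F statistic. It restates that test and is no separate measure of precision. DESeq2 1.42.0, limma 3.58.1, other scalings and filters, a replicate block and each library left out were alternatives. Differences between library sets came from 1 model of 18 libraries. Separated means that every dDAVP library lay above, or below, every control. A limit of 3 counts behind a 0 reflects counting error alone. The scripts were tested on simulated data.

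The comparison, the 28 gene lists and the genes named earlier were chosen with earlier results of these data known. Genes were named where an earlier result named them, among the 15 largest separated differences each way (mean at least 5 CPM, unadjusted p under 0.05), among up to 4 separated members of each list, where the highest counts met a 0 within a group, or where called. The 15 each way left out predicted genes, clones, small RNAs, symbols turned into dates and ribosomal protein genes. Genes called in libraries 1 to 3, the most abundant genes, Prkaca, Sik1 and marker genes were named besides. Some genes that the rule picks are not reported here. Python 3.11.15, R 4.3.3 and matplotlib 3.10.9 were used. Promoter windows and gene positions came from RefSeq on GRCm38.p6.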

Additional observations from a re-analysis of the deposited data

Results flagged for a closer look

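Ephx1, an epoxide hydrolase gene, was separated downward in libraries 4 to 6 (log2 fold change -1.87) and separated upward in libraries 1 to 3 (0.43). The fit of all 18 libraries gave a difference of -2.29 (SE 0.91, edgeR adjusted p = 1). Hmgcs1 was separated upward in libraries 4 to 6 (2.02) and downward in libraries 1 to 3 (-1.31), with a difference of 3.30 (SE 0.93, edgeR adjusted p = 1). Neither difference passed the test, and opposite separations were looked for in all the genes given with a fold change here.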

How the results depend on the processing

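No reversal of direction was counted for the 69 genes followed, in 1161 pairs of gene and alternative setting of the 6-library fit. In 19 of these pairs, 13 of them with DESeq2, a gene passed the threshold it otherwise missed. No gene was called in the 6-library fit, so the count of reversals does not show that signs held. Not every gene named here kept its sign. The log2 fold change of Avpr2 was -0.27 with 6 libraries and 0.02 without dDAVP 6, and that of Car15 was -0.02 and 0.34. Scnn1g stood at -0.06 with edgeR and 0.07 with DESeq2.

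Against 0 genes called with 6 libraries, library totals alone gave 1 (Aqp2), no filter 1 (Cited1), the spread shared with 18 libraries 1, limma voom with quality weights 2 and DESeq2 29. Leaving out 1 library gave 0 to 2, the 2 without dDAVP 6. Against 479 genes at an unadjusted p under 0.05, the numbers were 225 with library totals, 232 with FPKM, 800 with DESeq2, 811 without a filter, 861 with quality weights, 898 with the shared spread and 312 to 1112 with 1 library left out, the highest without dDAVP 4. Genes separated upward were 164 with library totals, 118 with FPKM and 826 to 1369 with 1 library left out, against 485. Genes separated downward were 393 with FPKM and 1025 to 1727 with 1 library left out, against 594. Fewer libraries separate more easily by construction.

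Without dDAVP 6, the 2 called genes became 52 with DESeq2, 6 without a filter, 1 with limma voom and 1 to 3 with a further library left out, where a lone dDAVP library is assumed to vary like the controls. The difference from libraries 1 to 3 was called for 13 genes by DESeq2, and that from libraries 7 to 9 for 238 by DESeq2, 4 with library totals, 2 with quality weights and 1 without dDAVP 6. The cause of these changes was not tested.

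With the replicate number as a block, 0 genes were called and 425 had an unadjusted p under 0.05. Same-numbered libraries deviated together at correlations of 0.296, -0.0164 and 0.073, so the numbers were not taken as pairs.

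Aqp2 had 727 counts or more in every library, while genes under 1 CPM rest on few counts. The common biological coefficient of variation was 0.744 with 6 libraries and 0.679 without dDAVP 6.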
